A study of Mus musculus with 32 samples.

Results

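The Igkv6 family is 1 of the families of variable (V) segments that the mouse Igκ light chain locus can join to a Jκ segment. Its members were taken as the rows whose name starts with Igkv6- in the counts of rearranged Igκ transcripts, which gave 9 of the 112 Vκ segments counted: Igkv6-13, Igkv6-14, Igkv6-15, Igkv6-17, Igkv6-20, Igkv6-23, Igkv6-25, Igkv6-29 and Igkv6-32. The name was borne out by sequence, since over the 36 pairs of members the V exons of the B6 reference were 81.2% to 98.3% identical, with a median of 83.9%, while the closest counted segment outside the family was 74.8% to 76.9% identical to a member.

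In pre-B cells, RAG recombinase cuts next to V and J segments and a V segment is joined to a Jκ segment on either parental chromosome. The V segment supplies most of the variable domain of the light chain, including the first and second of its antigen-binding loops. RAG recognises a recombination signal sequence beside each segment, which holds a heptamer, a spacer and a nonamer. In pre-B cell cultures the withdrawal of IL-7 starts Igκ rearrangement, so that rearranged transcripts read from the Cκ exon show which V segments were chosen, and strain differences within the V segments show on which allele.

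The cells were bone marrow derived pre-B cells of female F1 mice of C57BL6 (B6) and Castaneous (Cast) parents, 8 to 12 weeks old, for which no engineered allele is named, so that cells inherited an Igκ allele of each strain. Late passages of clone 3 are described as having apparently lost the Cast Vκ locus, and the passage sequenced by VJ-seq is not given in the sources used here. The clone 3 library had 80861 Cast reads, 48.8% of its total. Clones 3, 4, 8, B52 and E9-3 were each grown from 1 cell by limiting dilution on irradiated ST2 stromal feeder cells with IL-7, and each was sequenced as 1 library 48 h after IL-7 was taken away. Clone 4 was sequenced again, as 1 library each, at 12, 24, 36 and 48 h without IL-7. A pool library completes the data. Its labels describe cultured pre-B cells, whereas the methods describe a rearrangement library of cells selected from bone marrow. Its counts are listed together with those of the clones at 48 h, and no time without IL-7 is given for the pool itself. These counts hold no marker genes with which the cell type could be checked.

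Reads assigned to an allele numbered 34291 to 165679 in the libraries of the 5 clones and 320951 in the pool, but 1174 to 10958 in the time course. The level of a segment is given as the percent of all reads of its library over both alleles or, where stated, of the reads of 1 allele, and its allelic ratio as the B6 share, that is, B6 reads over B6 and Cast reads in percent. The B6 share of all reads was 51.2% to 71.8% in the 5 clones and 57.4% in the pool. Intervals are 95% Wilson intervals, and because the reads were amplified by PCR and carry no molecular identifiers, neither intervals nor the limit of 3 reads cover more than counting error. With 1 library for each clone and time point, tests on reads compare libraries and not conditions, and more cells with a rearrangement cannot be told apart from more transcript in each.

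The recombination signals next to the 9 members are shown because RAG cuts there and because members that share a signal could be compared. They were read from the GRCm38 (mm10) reference on the strand of each segment, with the heptamer and the nonamer in capitals and the spacer of 12 bases in lower case.
Igkv6-32 and Igkv6-17: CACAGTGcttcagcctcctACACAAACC
Igkv6-29: CACAGTGcttcagcctcctACATAAACA
Igkv6-25: CACAGTGcttcagccttctACATAAACA
Igkv6-20: CACAGTGcttcagcctcccACATAAACA
Igkv6-23 and Igkv6-14: CACAGTGcttcagcctcctACATAAACC
Igkv6-15: CACAGTActtcagcctcctACATAAACC
Igkv6-13: CACAGTGcttcagcctcctACATAAGCC
The heptamer was searched as CACAGTG and the nonamer as ACAAAAACC, in the orientation of the segment, within 8 bases of the annotated 3′ end. The consensus heptamer was found in 8 of the 9 members (88.9%) and in 77 of the 89 other functional segments (86.5%). Igkv6-15 carries the change G7A, counted from 1 at the first base of the heptamer. None of the 9 members has the consensus nonamer, which 34 of the 89 other functional segments hold (38.2%), and all 9 differ from it at position 4 (A4C in Igkv6-32 and Igkv6-17, A4T in the others). The nonamers of Igkv6-29, Igkv6-25 and Igkv6-20, with a second change C9A, and of Igkv6-13, with A7G, occurred in 0 of the 89 other functional segments. The Cast sequence of these signals was not analysed here.

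All 9 members are annotated as functional V genes (IG_V_gene, GENCODE M21) on chromosome 6, over the 384 kb from 70074024 to 70458036, and 18 of the 111 counted segments found in that annotation start within these bounds, members included. The order toward Jκ runs from Igkv6-32 (chr6:70074024-70074603, minus strand, ENSMUSG00000076576.2), 649 kb from Jκ1, and Igkv6-29 (chr6:70138462-70139110, minus strand) to Igkv6-25 (chr6:70215400-70215957, plus strand). It goes on with Igkv6-23 (chr6:70260409-70260955, minus strand), Igkv6-20 (chr6:70335841-70336507, minus strand) and Igkv6-17 (chr6:70371439-70371993, plus strand). The 3 members nearest to Jκ are Igkv6-15 (chr6:70406469-70406992, minus strand), Igkv6-14 (chr6:70434952-70435476, minus strand) and Igkv6-13 (chr6:70457501-70458036, minus strand), the last at 265 kb from Jκ1. Igkv6-25 and Igkv6-17 lie in the orientation of the Jκ segments and the other 7 members in the opposite one. Each V exon is 298 bases long, so levels of members need no correction for exon length. Whether reads of each member were assigned to an allele equally well was not tested.

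**Figure D1:**
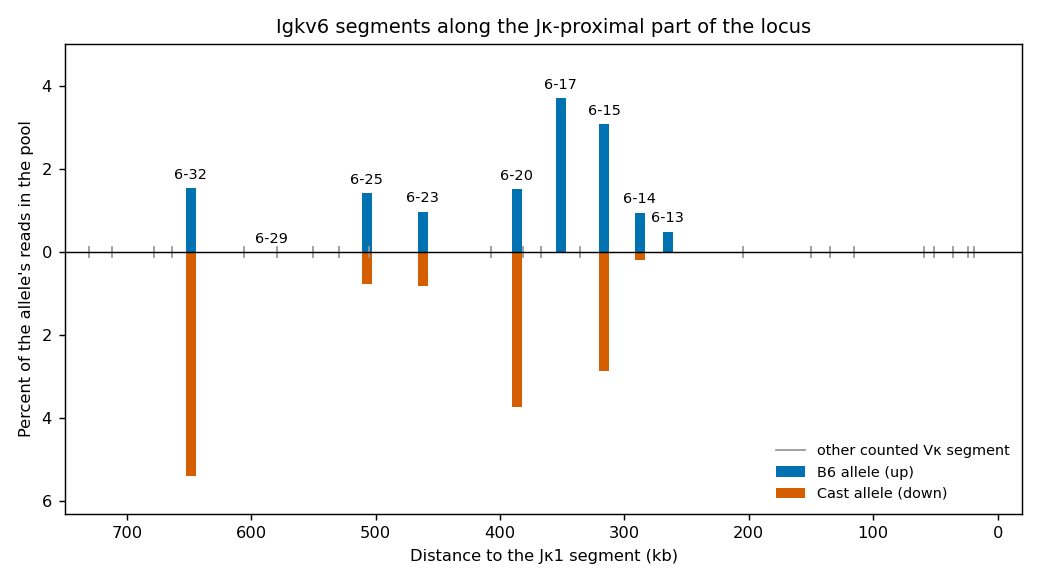
Percent of the reads of the B6 allele (blue, up) and of the Cast allele (orange, down) taken by each Igkv6 segment in the pool, against its distance to Jκ1 in kb; grey ticks are the other counted Vκ segments. Igkv6-32 was 1.53% of B6 reads and 5.40% of Cast reads, Igkv6-17 was 3.71% of B6 reads and had 1 Cast read, and Igkv6-29 had no read.

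Igkv6 segments made up between 6.14% and 14.7% of the rearranged transcripts of the clones at 48 h, and 13.7% (interval 13.6% to 13.8%) of those of the pool. The family took 14.7%, 12.6%, 6.59%, 6.14% and 9.93% of the reads of clones 3, 4, 8, B52 and E9-3, a mean of 9.98% ± 3.70 (SD, n = 5). Clones B52 and 8 were lowest. In clone B52 the Igkv3 family, at the end of the locus next to Jκ, held 43.4% of reads, and with Igkv3 left out of every total, an alternative chosen after seeing the data, the Igkv6 family was 10.8% of clone B52 and had a mean of 12.3% over the 5 clones.

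The low percent in clone 8 was more marked on the Cast allele than on the B6 allele. In the clones, the family was 15.7%, 15.3%, 9.98%, 6.38% and 10.2% of the B6 reads of clones 3, 4, 8, B52 and E9-3, a 2.46-fold range, with a mean of 11.5% ± 3.96 (SD, n = 5). Of the Cast reads it was 13.5%, 5.64%, 0.867%, 5.67% and 9.57% in the same order, a 15.6-fold range around a mean of 7.05% ± 4.76 (SD, n = 5). The Cast range rests on clone 8, without which it was 2.40-fold, and the B6 range was 1.58-fold without clone B52. The pool stood at 13.6% of B6 reads and 13.8% of Cast reads. Clone 8 held the lowest Cast percent of the 5 clones for 8 of the 9 members, ties at 0 reads included. Igkv8, of whose 11 segments the 10 found in the annotation lie among and near the Igkv6 segments, was 9.31%, 3.48%, 1.53%, 3.98% and 5.72% of Cast reads, and Igkv3 was 11.5%, 0.175%, 0.177%, 44.7% and 29.8%. Low Cast percents in clones 4 and 8 were thus not seen in Igkv6 alone.

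**Figure D2:**
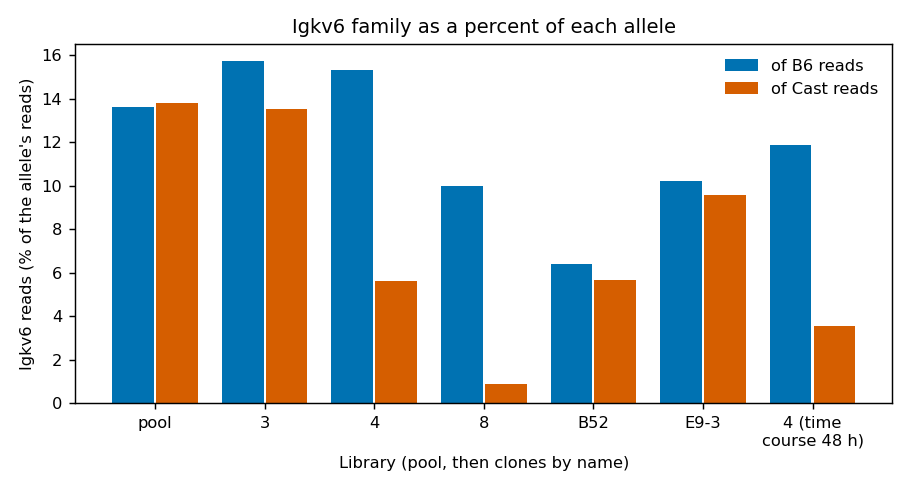
Reads of the Igkv6 family as a percent of all reads on the B6 allele (blue) and on the Cast allele (orange) in the pool, the 5 clones and clone 4 at 48 h of the time course, 1 library each; bars start at 0. The pool was at 13.6% and 13.8%, clone 4 at 15.3% and 5.64%, and clone 8 at 9.98% and 0.867%.

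The allelic ratio of the family followed. Its B6 share was 54.9%, 87.3%, 95.1%, 68.4% and 55.3% in clones 3, 4, 8, B52 and E9-3, with a mean of 72.2% ± 18.4 (SD, n = 5), against 57.1% in the pool. The segments outside the family in the same clones were at 50.6%, 69.5%, 60.6%, 65.6% and 53.5% B6, and at 57.5% in the pool. In clone 8 the Igkv6 family was thus 34.5 points above the rest of the library, and in clone B52 it was 2.79 points above. High B6 shares in clones 4 and 8 were not seen in Igkv6 alone. Igkv8 was at 87.4% and 89.6% there, and Igkv3 at 98.9% and 98.7%.

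A member was called to an allele by an exact binomial test with Benjamini-Hochberg adjusted p under 0.05 over all segments with at least 10 reads in the library and at least a 2-fold difference between alleles. The p and fold thresholds are those the study's methods give for transcription in the Vκ region, and the minimum of 10 reads was added here. In the pool, 4 of the 8 members tested were called to B6, where 49.5% of all segments tested were, and 1 to Cast, where 16.8% were. In clone 3, 5 of 9 members were called to B6 (44.1% of all segments) and 2 to Cast (28.4%). In clone 4, 8 of 9 were called to B6 (65.0% of all) and 1 to Cast (9.71%). Clone 8 had all 8 members tested called to B6 (55.4% of all) and 0 to Cast (15.8%). Clone B52 had 5 of 9 called to B6 (52.1% of all) and 1 to Cast (17.7%), and clone E9-3 had 4 of 8 (44.2%) and 1 (22.1%). Over the 5 clones, 30 of 43 tests gave a B6 call, 5 a Cast call and 8 no call, and over all segments 260 of 497 tests (52.3%) gave a B6 call and 93 (18.7%) a Cast call. The shares called to B6 in clones 4 and 8 stood farthest above those of all segments, and those in the pool, clone B52 and clone E9-3 near them. In clones 4 and 8, respectively, 9 and 8 of the 10 Igkv8 segments tested were also called to B6. All 8 Igkv3 segments tested were called to B6 in each of these clones. Over all 10 libraries members had 47 B6 calls and 8 Cast calls in 66 tests on reads as counted. Over all segments, 55.0% and 17.7% of 815 tests gave such calls. These tests are not independent, since clone 4 is among the 5 clones and gave the whole time course, so its segments are counted repeatedly. With counts divided by the spread between the 2 clone 4 libraries at 48 h, members had 27 B6 calls and 4 Cast calls. Over all segments 27.7% and 7.98% of tests were then called.

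Igkv6-17 and Igkv6-13 had almost no Cast reads in any library, Igkv6-29 was read mostly on Cast, and the other 6 members were read on both alleles in the pool. Whether the B6 share of a segment differed between the 5 clones was tested with a Monte Carlo chi-square test adjusted over the 104 segments with at least 20 reads. It called 7 of 9 members, where 76.9% of all segments were called. Because libraries of 1 clone differ by more than counting error, the same statistic was also divided by 18.8, its mean over 80 segments between the 2 libraries of clone 4 at 48 h. It then called 4 of 9 members, Igkv6-32, Igkv6-25, Igkv6-20 and Igkv6-15, where 39.4% of all segments were called. The divisor rests on those 2 libraries, of 64672 and 10958 reads, while the clone libraries held up to 165679. Whether it holds at greater depth was not tested. The size of a p-value with the divided statistic is therefore not calibrated, and it compares single libraries. The median range of the B6 share over the clones was 22.2 points for the members and 27.5 points for all segments tested.

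**Figure D3:**
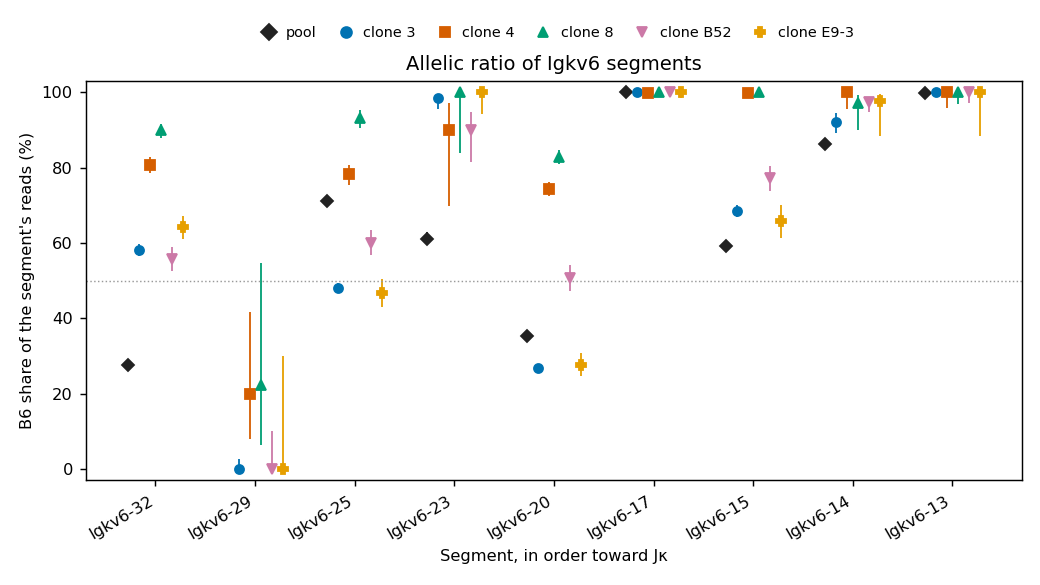
B6 share (B6 reads over all reads of the segment in percent, with 95% Wilson intervals for counting error) of each Igkv6 segment in the pool and the 5 clones, 1 library each; the dotted line marks equal alleles. Igkv6-17 and Igkv6-13 stay at 99.8% or above in all 6 libraries, while Igkv6-20 runs from 26.8% in clone 3 to 82.9% in clone 8.

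Igkv6-20 had the widest spread of allelic ratio in the family. It had 1952 B6 and 5342 Cast reads in clone 3, a B6 share of 26.8%, and clones 4, 8, B52 and E9-3 were at 74.3%, 82.9%, 50.7% and 27.7%. The pool was at 35.2%. Clones 3 and E9-3 were called to Cast and clones 4 and 8 to B6, and the intervals of these pairs were far apart, at 25.8% to 27.8% in clone 3 and 80.8% to 84.7% in clone 8. The difference between clones had an adjusted p of 4.1e-28 with the divided statistic. On the B6 allele Igkv6-20 ranged 3.51-fold over the clones, from 0.937% of B6 reads in clone B52 to 3.28% in clone 4. On the Cast allele it ranged 11.8-fold, from 0.561% in clone 8 to 6.61% in clone 3, which was 3.77-fold without clone 8 and 7.14-fold without clone 3. In all reads it was 4.40%, 3.17%, 1.22%, 1.22% and 2.57% of clones 3, 4, 8, B52 and E9-3, and 2.45% of the pool, and it was the most abundant member in clone 3.

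Igkv6-15, the member with the altered heptamer, was nearly confined to the B6 allele in 2 of the clones and was read on both alleles in the others. Its Cast reads numbered 6 of 2108 in clone 4 and 2 of 3357 in clone 8, giving B6 shares of 99.7% and 99.9%. Clones 3, B52 and E9-3 had shares of 68.5%, 77.3% and 65.8%, and the pool was at 59.1% with 3913 Cast reads. These 2 groups of clones were formed from the shares themselves, so their separation is a description and was not tested. The adjusted p of 1.8e-20 with the divided chi-square statistic is for a difference among all the clones. The segment made up 2.22%, 3.26%, 2.82%, 0.917% and 1.27% of clones 3, 4, 8, B52 and E9-3 and 2.98% of the pool. It was the leading member of the family in clones 4 and 8, where it took 25.9% and 42.8% of the Igkv6 reads. In the other clone 4 library at 48 h, that of the time course, it was the 4th member with 12.1% of the Igkv6 reads. Its B6 percent ranged 4.20-fold over the clones. It made up 1.43%, 0.609% and 0.938% of the Cast reads of clones 3, B52 and E9-3, against 0.0328% in clone 4 and 0.00453% in clone 8.

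Igkv6-32, the member farthest from Jκ, was the most abundant of the family in the pool and there leaned to the Cast allele. Its 10196 reads were 3.18% of the pool, ranking 7th among the 112 segments, and 27.7% of them (interval 26.8% to 28.5%) were on B6. In the clones the B6 share was 58.1%, 80.8%, 89.9%, 55.7% and 64.2% in clones 3, 4, 8, B52 and E9-3, so every clone lay above the pool. It was called to Cast in the pool and to B6 in clones 4 and 8, with no call in the other clones. Among the 5 clone libraries the adjusted p was 6.25e-05 with the divided chi-square statistic. The level was 2.18%, 2.13%, 0.790%, 1.33% and 2.94% of these clones. The Cast percent was 5.40% in the pool and at most 2.27% in the clones, while the B6 percent of the pool, 1.53%, lay within the 1.13% to 3.52% of the clones. The pool and the clones differ in origin and in library, which cannot be told apart.

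Igkv6-17 has the same recombination signal of 28 bases as Igkv6-32 in the B6 reference but was read on B6 alone, apart from a few reads. Over all 10 libraries it had 13604 B6 reads and 4 Cast reads. The pool had 6830 B6 reads and 1 Cast read. Such a ratio was common in the pool, where 27 of the 101 segments with at least 10 reads (26.7%) had a B6 share above 99%, among them Igkv6-17 and Igkv6-13. Its B6 share was 99.9% to 100% in every clone and did not pass the test between clones (adjusted p = 0.480 as counted). Its level in clones 3, 4, 8, B52 and E9-3 was 1.71%, 2.19%, 1.22%, 0.759% and 0.735%, beside 2.13% in the pool. On the B6 allele it was 3.71% of the pool, the highest percent of a member there, and 1.15% to 3.35% of the clones. This range of 2.90-fold was the narrowest of the family among members read in every clone on B6. The rank was lost when clone 3, 4, 8 or E9-3 was left out. Without clone 3, for example, Igkv6-13 ranged 1.77-fold and Igkv6-17 2.64-fold.

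Igkv6-13, the member nearest to Jκ, was also read on B6 apart from 2 Cast reads in the pool, beside 2111 B6 reads over all libraries. No Cast read was counted in any clone. It was 0.499%, 0.139%, 0.103%, 0.184% and 0.0846% of clones 3, 4, 8, B52 and E9-3, and 0.281% of the pool. Clone 3 was the only clone above the pool. For Igkv6-17 and Igkv6-13 a Cast allele that is not rearranged or not transcribed cannot be told apart from one whose reads were not assigned to it.

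Igkv6-25 was read on both alleles and was the member whose level moved most between clones among those above 0.1% of every clone. In clones 3, 4, 8, B52 and E9-3 it was 3.19%, 1.51%, 0.359%, 1.18% and 1.99% of reads, an 8.88-fold range, beside 1.15% of the pool. The B6 share in the same order was 48.0%, 78.2%, 93.2%, 60.1% and 46.6%, and 71.1% in the pool, and the adjusted p between clones was 1.26e-05 with the divided statistic. Clones 4 and 8 again lay above the other 3 clones. Its Cast percent ran from 3.40% in clone 3 to 0.0656% in clone 8, a 51.7-fold range, and its B6 percent had a 5.62-fold range. Without clone 8 the ranges of the level, the Cast percent and the B6 percent were 2.70-fold, 2.91-fold and 2.77-fold, and without clone 3 they were 5.54-fold, 34.9-fold and 3.25-fold. The rank of its level thus rests on clone 8, without which the level of Igkv6-20 ranged more, at 3.62-fold.

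Igkv6-23 and Igkv6-14 share a recombination signal in the B6 reference and were both more abundant in the pool than in any clone. Igkv6-23 was 0.907% of the pool with 1780 B6 and 1131 Cast reads, a B6 share of 61.1%. In clones 3, 4, 8, B52 and E9-3 it was 0.116%, 0.0309%, 0.0168%, 0.116% and 0.184%, with B6 shares of 98.4%, 90.0%, 100%, 90.0% and 100% from 192, 20, 20, 80 and 63 reads. Its Cast reads were thus 0.827% of the Cast reads of the pool and at most 0.0338% of those of a clone. Igkv6-14 was 0.631% of the pool with a B6 share of 86.2%. In the clones it was 0.248%, 0.130%, 0.0571%, 0.383% and 0.131%, with B6 shares of 92.2%, 100%, 97.1%, 97.4% and 97.8%. The differences of B6 share between clones passed the test as counted, with adjusted p of 0.00948 for Igkv6-23 and 0.00743 for Igkv6-14, and did not pass with the divided statistic, where both adjusted p were 1. Without clone 3 neither was called as counted (adjusted p = 0.0556 and 0.634), and Igkv6-23 was not called without clone B52 (0.0843). Igkv6-14 was also not called with the time course library of clone 4 (0.0588).

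Igkv6-29 was read mostly on Cast and was the rarest member in the pool and the clones, with as many reads as Igkv6-23 in clone 4. At 36 and 48 h of the time course it had 11 and 29 reads, more than Igkv6-23, Igkv6-14 and Igkv6-13. It had no read among the 320951 of the pool, which allows up to 3 reads or 0.000935%, and it was the only segment read in each of the 5 clones and not in the pool. In clones 3, 4, 8, B52 and E9-3 it had 143, 20, 9, 34 and 9 reads, or 0.0863%, 0.0309%, 0.00756%, 0.0492% and 0.0262%. Over all 10 libraries 8 reads were on B6 and 247 on Cast. It was called to Cast in clones 3, 4 and B52, and had too few reads to be tested in clones 8 and E9-3. These calls are on reads as counted. Over all members and libraries, Cast calls were 4 instead of 8 with counts divided by the spread between the 2 clone 4 libraries. Its V exon differs from that of Igkv6-20 at 5 of 298 positions in the B6 reference (98.3% identity), so reads of the 2 segments could have been split between them and the values of Igkv6-29 are uncertain. The Cast reads of Igkv6-29 were 2.68%, 3.04%, 2.82%, 8.21% and 1.41% of those of Igkv6-20 in clones 3, 4, 8, B52 and E9-3, and 0 beside 5092 in the pool. In the time course of clone 4 they were 16.9% at 36 h and 69.2% at 48 h.

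**Figure D4:**
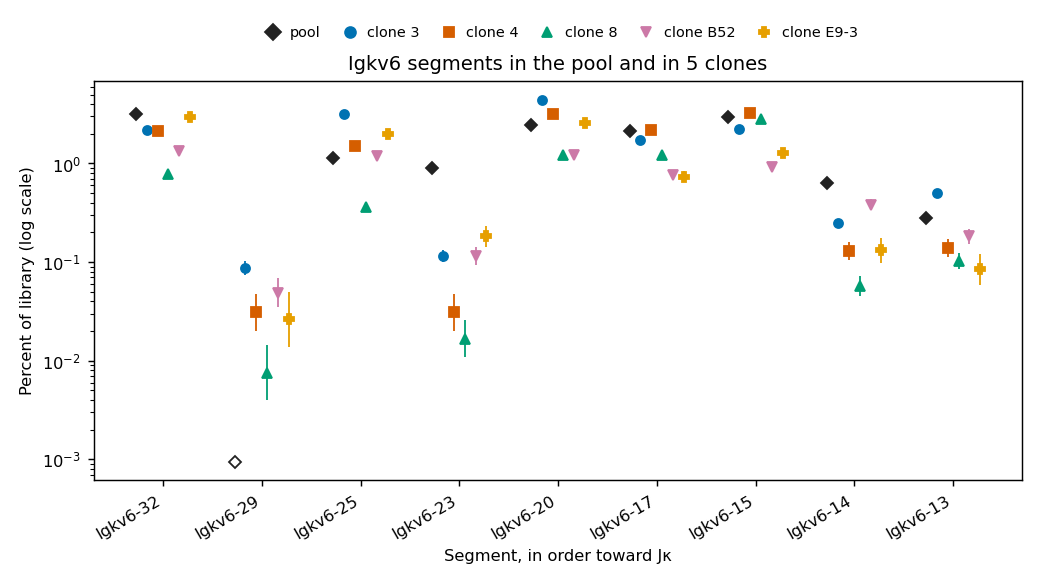
Percent of library (log scale, with 95% Wilson intervals for counting error) of each Igkv6 segment in the pool and the 5 clones, 1 library each; the open diamond is the limit of 3 reads for Igkv6-29, which had no read in the pool. Igkv6-23 and Igkv6-14 were higher in the pool than in each clone, and clone 8 was lowest for 5 of the 9 segments.

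The order of the abundant members changed between libraries. Igkv6-32 led the family in the pool and clones B52 and E9-3, Igkv6-20 in clone 3 and Igkv6-15 in clones 4 and 8, while Igkv6-29, Igkv6-23, Igkv6-14 and Igkv6-13 were the 4 rarest members in each of the 5 clones. In clone B52 Igkv6-32 at 1.33%, Igkv6-20 at 1.22% and Igkv6-25 at 1.18% had overlapping intervals, and in clone 4 so did Igkv6-20 at 3.17% and Igkv6-15 at 3.26%. Clone 8 had the lowest percent of the clones for 5 of the 9 members and clone 3 the highest for 4. The ratio of the highest to the lowest clone had a median of 5.90 over the 9 members and of 5.73 over the 99 segments for which it could be computed. Without clone 8 the medians were 3.29 over the members and 4.11 over 99 segments, and without clone 3 they were 3.72 over the members and 4.99 over 100 segments.

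For each member the segment outside the family with the most similar level was found by Pearson correlation of log2(percent of library + 0.01) over the pool and the 5 clones, among 84 segments with at least 10 reads in each. These 6 libraries are shared by all the segments and percents of 1 library are tied to the same total, so the values are descriptions. The highest were Igkv1-115 for Igkv6-25 (r = 0.983), Igkv14-111 for Igkv6-15 (0.965), Igkv1-135 for Igkv6-32 (0.936) and Igkv8-24 for Igkv6-20 (0.922). They were followed by Igkv8-34 for Igkv6-29 (0.875) and Igkv12-46 for Igkv6-17 (0.844). Igkv3-1 was the closest for both Igkv6-14 (0.766) and Igkv6-23 (0.749), and Igkv8-19 for Igkv6-13 (0.743). Within the family the closest pairs were Igkv6-17 with Igkv6-15 (0.893), Igkv6-23 with Igkv6-14 (0.841) and Igkv6-25 with Igkv6-20 (0.814). Of the pairs whose members share a recombination signal, Igkv6-23 with Igkv6-14 was thus among the closest and Igkv6-32 with Igkv6-17 was not. Igkv6-23 and Igkv6-14 were both highest in the pool, and r without the pool was not computed. Whether the signal bears on the level was not tested.

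Igkv6 segments were almost unread in clone 4 at 12 h without IL-7 and reached 9.93% of reads at 48 h. The family held 4 of 1737 reads at 12 h (0.230%, interval 0.0896% to 0.591%), then 44 of 1174 reads (3.75%), 604 of 7092 (8.52%) and 1088 of 10958 at the later times. The ratio of 48 h to 12 h was 43.1, with an exact counting interval from 16.8 to 159, and at its level of 48 h the family would have given 172 reads at 12 h. Igkv19-93 alone held 59.0% of the reads at 12 h and 8.94% at 48 h. With the most abundant segment outside the family left out of each total, the family was 0.561% at 12 h and 10.9% at 48 h. With each allele scaled to its own total it was 0.582% and 7.71%, a smaller ratio, and 3 of the 4 reads at 12 h were on Cast. Of the Igkv8 family no read was counted at 12 h and 7.02% of reads at 48 h, and Igkv3 was 1.09% and 2.35%.

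Fisher's exact test of each segment's reads against all other reads, with Benjamini-Hochberg adjustment over 84 segments, called 6 of the 8 members tested higher at 48 h than at 12 h, where 53.6% of all segments were. It called 0 members higher at 12 h, where 8.33% of all segments were. Igkv6-20 had 0 reads at 12 h and 349 at 48 h (3.18%), at least 18.4-fold higher when 12 h is set to its limit of 3 reads (adjusted p = 8.78e-22). Igkv6-17 had 0 and 182 reads, at least 9.62-fold higher, and Igkv6-15 had 0 and 132 reads, at least 6.97-fold higher. Igkv6-32 had 1 and 269 reads, a ratio of 42.6 with an exact interval from 7.59 to 1690. These 4 members were called under every alternative run. Igkv6-25 had 3 reads at 12 h, all on Cast, and 98 at 48 h, of which 4 were on Cast, a ratio of 5.18 with an interval from 1.72 to 25.5 (adjusted p = 0.00142). Igkv6-29 had 0 and 29 reads, at least 1.53-fold higher (adjusted p = 0.0429). Without Igkv19-93 in the totals neither Igkv6-25 (adjusted p = 0.270) nor Igkv6-29 (0.377) was called, and Igkv6-29 was also not called against the clone 4 library of the table of clones (adjusted p = 1). Igkv6-23 and Igkv6-13 had 0 reads at 12 h and 13 and 10 at 48 h, which was not detectable as a difference at the depth of 12 h, and Igkv6-14, with 6 reads, was not tested. At 12 h no read was counted for 7 of the 9 members and for 66 of the 112 segments (58.9%).

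Between those times Igkv6-32 was the first member with more than 10 reads. At 24 h it had 22 reads, all on B6, or 1.87% (interval 1.24% to 2.82%), against 2.40% at 36 h and 2.45% at 48 h. Igkv6-20 was at 0.341% (0.133% to 0.873%) at 24 h from 4 reads, 3.16% at 36 h and 3.18% at 48 h. The intervals of Igkv6-32 overlapped from 24 h on, and those of Igkv6-20 at 24 h and 36 h did not. Igkv6-17 was at 0.511%, 1.38% and 1.66%, and Igkv6-15 at 0.426%, 0.917% and 1.20%, at 24, 36 and 48 h. Igkv6-23 had no read before 48 h. The depth of 24 h allows up to 0.256% for a segment with no read, so the rare members could not be followed there.

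**Figure D5:**
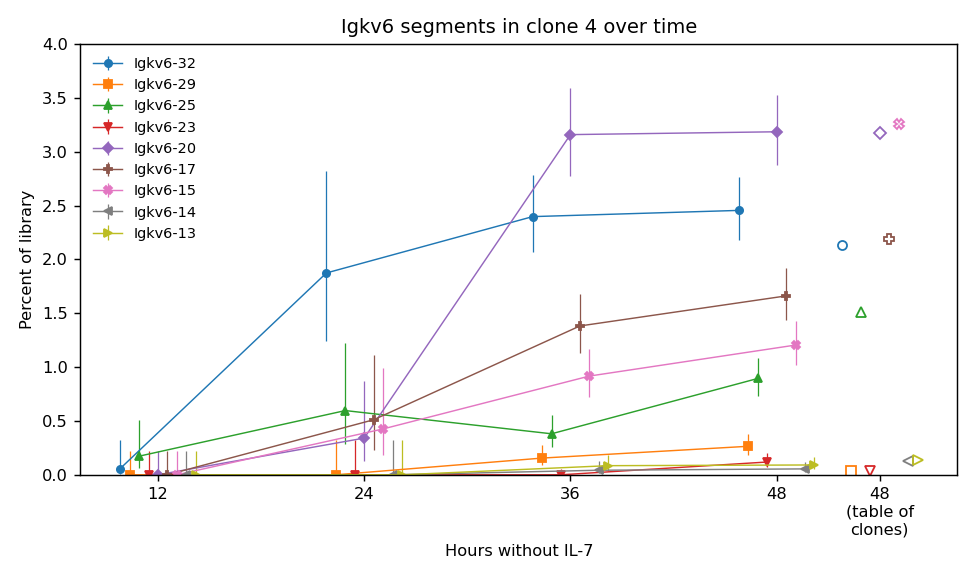
Percent of library of each Igkv6 segment in clone 4 at 12, 24, 36 and 48 h without IL-7 (filled symbols, 95% Wilson intervals for counting error, 1 library each; symbols are spread sideways for legibility) and in the clone 4 library of the table of clones (open symbols at the right). At 12 h no member was above 0.173%; at 48 h Igkv6-20 (3.18%) and Igkv6-32 (2.45%) led, and Igkv6-15 was at 1.20% in the time course and 3.26% in the table of clones.

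In the time course most members that could be tested were called to B6 and Igkv6-29 was called to Cast. At 24 h the 1 member tested, Igkv6-32, was called to B6, where 55.9% of all segments tested were and 11.8% were called to Cast. At 36 h 5 of 6 members were called to B6 (66.7% of all) and 1 to Cast (14.1%), and at 48 h 7 of 8 were called to B6 (63.1%) and 1 to Cast (15.5%). The Cast call was Igkv6-29 both times. The B6 share of the family was 95.5% at 24 h, 83.1% at 36 h and 91.6% at 48 h, and at 12 h 1 of its 4 reads was on B6. Igkv6-17, Igkv6-15, Igkv6-14, Igkv6-13 and Igkv6-23 had no Cast read at any of the 4 times, but at 12 h they had no read on either allele. Igkv6-14 and Igkv6-13 also had none at 24 h, then 3 and 6 reads at 36 h and 6 and 10 at 48 h. Igkv6-23 was read at 48 h only, with 13 reads. For these 3 members the lack of Cast reads thus rests on few reads.

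The 2 libraries of clone 4 at 48 h give the only measure of how far libraries of 1 clone differ. For the level, 5 of the 9 members differed by Fisher's exact test with adjusted p under 0.05, where 62.1% of all segments did. Igkv6-15 was 3.26% in the table of clones and 1.20% in the time course (adjusted p = 2.08e-37), Igkv6-25 was 1.51% and 0.894%, and Igkv6-17 was 2.19% and 1.66%. In the other direction Igkv6-29 was 8.56 times and Igkv6-23 3.84 times higher in the time course library. Igkv6-20, at 3.17% and 3.18%, and Igkv6-32, at 2.13% and 2.45%, were not called, the latter narrowly (adjusted p = 0.0527). With Igkv19-93 and another segment outside the family left out of the totals, Igkv6-32 was called (adjusted p = 0.0377). The members called then numbered 6 instead of 5. For the B6 share, 3 of the 9 members differed, where 29.1% of all segments did. Igkv6-32 was at 80.8% and 92.2%, Igkv6-25 at 78.2% and 95.9% and Igkv6-20 at 74.3% and 88.8%, each with a higher B6 share in the time course library. The differences were 11.4 to 17.7 points.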

How the data were processed

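Rearranged Igκ transcripts were measured by VJ-seq in 10 libraries of B6/Cast pre-B cells: a pool, 5 clones and clone 4 at 4 times without IL-7. Per the methods of the study, RNA was reverse transcribed from Cκ, ligated to an adapter, amplified by PCR and sequenced, and trimming, alignment by Bowtie2 against a genome holding both strains' sequences and counting over V segments by HTSeq were done by the authors; the submitters' processing notes name the build mm10, and the versions of these programs are not given in the sources used here. The deposited values are raw read counts of 112 segments on each allele, without normalization. From them percents, B6 shares with 95% Wilson intervals, exact binomial tests (at least 10 reads), Monte Carlo chi-square tests with 9999 draws (smallest p 0.0001, at least 20 reads over the clones), Fisher's exact tests (at least 10 reads) and Benjamini-Hochberg adjusted p-values over all segments tested were obtained in SciPy 1.17.1, NumPy 2.4.6 and pandas 2.3.3 under Python 3.11.15, and figures were drawn with matplotlib 3.10.9. Reads numbered 1174 to 320951 in a library, so that 3 reads correspond to 0.256% to 0.000935%. Samples were grouped by their labels. The tests were tested on simulated counts, for which no values are given here. No count model such as edgeR was used, because each condition has 1 library in its table. Identity of V exons was taken from global alignments (Biopython 1.88) of the B6 reference, and positions from GENCODE M21, in which 111 of the 112 segments were found by name. All 9 members were named, and the Igkv8 and Igkv3 families were given for comparison. Other segments were named as the closest to each member by correlation or where a library total rests on them. The members, lists and tests were chosen with earlier results of these data known. Alternatives varied read minimums, the null ratio, the clones and libraries included and the total. The RNA-seq and ATAC-seq samples of the series were not analysed here.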

Additional observations from a re-analysis of the deposited data

Results flagged for a closer look

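The B6 share of 7 members differed between the 5 clones by the Monte Carlo chi-square test on reads as counted, a test between single libraries that called 76.9% of all segments. The gap between the highest and the lowest clone was 56.1 points for Igkv6-20, 46.6 points for Igkv6-25, 34.1 points for Igkv6-32, 34.1 points for Igkv6-15, 22.2 points for Igkv6-29, 10.0 points for Igkv6-23 and 7.79 points for Igkv6-14. Clone 8 was the highest for Igkv6-20, Igkv6-25, Igkv6-32, Igkv6-15 and Igkv6-29, the last from 9 reads. With the statistic divided by the spread between the 2 clone 4 libraries, Igkv6-29, Igkv6-23 and Igkv6-14 were no longer called, and 4 of 9 members remained where 39.4% of all segments were called.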

How the results depend on the processing

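Of 66 tests of members over the 10 libraries, which count clone 4 repeatedly, 47 gave B6 calls and 8 Cast calls (55.0% and 17.7% of all 815 tests). These were 27 and 4 (27.7% and 7.98% of all) after counts were divided by the spread between the 2 clone 4 libraries, which leaves fewer reads, and the Cast calls were 4 (11.8% of all) with over 80% of reads on 1 allele required. The members differing between clones numbered 4 instead of 7 with the statistic so divided. Leaving out each clone gave 5 to 7 members as counted and 4 in every case with the divided statistic. Leaving out each clone moved the mean percent of library of the family between 8.81% and 10.9%, and its mean B6 share between 66.5% and 76.6%.

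Without the most abundant segment outside the family, the family was 14.4% of the pool, 7.68% of clone B52 and 10.9% of clone 4 at 48 h of the time course. Without Igkv6-32, the leading member in the pool, it was 10.5%, 4.80% and 7.47%. Without Igkv3 in the totals it was 14.8% of the pool and 10.8% of clone B52. With each allele scaled to its own total it was 7.71% of clone 4 at 48 h of the time course. The B6 share of the family in the pool was 67.5% as an unweighted mean over members and 66.0% without Igkv6-32, and the unweighted mean was 85.5% at 48 h of the time course. The causes of these shifts were not tested beyond the reads each alternative leaves out. The other 46 of the 62 alternative values were counts within 1.5 times the reported count or values within the spread. In such counts single members can cross the threshold, and only some of these crossings are given above. No paired analysis was possible because the VJ-seq libraries carry no replicate numbers and each condition has 1 library in its table. Depth limits the time course most, where a segment with no read may be at up to 0.173% at 12 h and 0.256% at 24 h.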
